A study of Mus musculus with 6 samples.

Results

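Transcripts of the OAS and OASL family were followed in primary dermal fibroblasts of the mouse. The members were all rows of the deposited expression table whose symbol begins with Oas or Oasl and a digit, which gave 8 genes out of 13706, the 6 genes Oas1a, Oas1b, Oas1c, Oas1g, Oas2 and Oas3 and the pair Oasl1 and Oasl2. KO + H-151 cells were Yap1 fl/fl and Wwtr1 fl/fl, which are floxed alleles of the genes for YAP and TAZ, and carried R26-CAG-CreER, a Cre at ROSA26 that tamoxifen activates. They received 1 µM H-151, an inhibitor of the adaptor protein STING, beside tamoxifen. KO cells had the same genotype and received no H-151. Control cells were Yap1 fl/fl and Wwtr1 fl/fl without Cre. Cells of every group were kept for 72 hr with 1 µM 4OH-Tamoxifen. Each group had 2 libraries. The labels give neither age, sex and strain background nor whether replicate libraries stem from different animals or cultures. The spread behind each p-value is therefore that of these libraries alone and may be technical. Control cells with Cre, and control cells with H-151, were not among the groups, so Cre activity cannot be told apart from the loss of YAP and TAZ, and the action of H-151 was measured in KO cells alone.

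OAS enzymes are interferon-induced proteins that bind double-stranded RNA and then join ATP into short chains with 2'-5' bonds, known as 2-5A. These chains act as second messengers of the antiviral response. OASL proteins add a ubiquitin-like part to the OAS fold. Mouse Oasl2 makes 2-5A, whereas mouse Oasl1 does not and is known for blocking the translation of Irf7 mRNA. OAS genes are classical targets of the transcription factor ISGF3, which binds the interferon-stimulated response element (ISRE) in their promoters.

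The 8 genes lie in 2 clusters on mouse chromosome 5 (GENCODE M21, GRCm38, the same assembly as mm10). Oasl2 (114896936 to 114912234) and Oasl1 (114923240 to 114937915) both run on the plus strand. In the other cluster, Oas2 (120730333 to 120749853), Oas3 (120753098 to 120777661), Oas1c (120800194 to 120812514), Oas1g (120876142 to 120887613) and Oas1a (120896256 to 120907521) run on the minus strand and Oas1b (120812635 to 120824163) on the plus strand. Oas1b is annotated as a polymorphic pseudogene. In mice it is known as the flavivirus resistance gene, which is truncated in many laboratory strains. Of 12 Oas and Oasl genes annotated in these clusters, Oas1d, Oas1e, Oas1f and Oas1h were not analysed here. Oas1c and Oas1b start back to back, with 120 bases between their first bases. A single promoter window therefore covers both starts.

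Promoter sequences are shown because the members moved together and because their ISRE letters differ. RefSeq windows on GRCm38.p6, from 250 bases before to 50 bases after each start, were matched by symbol for 6 of the 8 genes, and Oas1b and Oas2 had no entry of their own. Capitals mark the ISRE core, which is GAAA, 2 free letters and GAAA, searched on both strands, and overlapping matches are drawn as 1 run.
Oas1a (chr5:120907476-120907775, minus strand): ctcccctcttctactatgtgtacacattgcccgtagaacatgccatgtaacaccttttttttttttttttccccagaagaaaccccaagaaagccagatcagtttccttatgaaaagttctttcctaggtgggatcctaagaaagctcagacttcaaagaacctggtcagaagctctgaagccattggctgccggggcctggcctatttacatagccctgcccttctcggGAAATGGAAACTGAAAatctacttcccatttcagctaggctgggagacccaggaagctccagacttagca
Oas1g (chr5:120887564-120887863, minus strand): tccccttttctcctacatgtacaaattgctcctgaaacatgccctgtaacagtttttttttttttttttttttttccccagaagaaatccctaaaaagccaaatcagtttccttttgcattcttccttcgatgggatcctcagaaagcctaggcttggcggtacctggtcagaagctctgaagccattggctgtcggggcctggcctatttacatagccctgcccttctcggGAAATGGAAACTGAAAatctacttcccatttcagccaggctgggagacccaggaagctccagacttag
Oas1c (chr5:120812465-120812764, minus strand, with the start of Oas1b on the other strand at base 130): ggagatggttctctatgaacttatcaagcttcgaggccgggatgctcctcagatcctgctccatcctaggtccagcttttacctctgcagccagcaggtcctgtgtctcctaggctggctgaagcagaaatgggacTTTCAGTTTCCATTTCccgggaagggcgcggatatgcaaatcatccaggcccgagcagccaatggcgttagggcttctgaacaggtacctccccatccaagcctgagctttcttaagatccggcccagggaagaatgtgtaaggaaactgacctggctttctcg
Oas3 (chr5:120777610-120777909, minus strand): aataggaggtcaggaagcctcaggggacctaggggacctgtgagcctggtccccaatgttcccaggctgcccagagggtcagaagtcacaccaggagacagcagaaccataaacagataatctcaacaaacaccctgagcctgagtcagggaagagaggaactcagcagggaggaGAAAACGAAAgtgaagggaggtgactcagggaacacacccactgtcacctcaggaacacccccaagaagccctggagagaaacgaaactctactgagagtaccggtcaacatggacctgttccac
Oasl1 (chr5:114922990-114923289, plus strand): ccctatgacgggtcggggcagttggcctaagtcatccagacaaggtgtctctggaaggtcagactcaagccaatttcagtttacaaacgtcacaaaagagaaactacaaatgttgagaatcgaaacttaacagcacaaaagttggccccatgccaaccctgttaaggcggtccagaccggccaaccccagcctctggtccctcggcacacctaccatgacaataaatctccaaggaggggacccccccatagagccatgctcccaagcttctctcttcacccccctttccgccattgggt

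The ISRE core was present in 4 of the 6 matched windows (Oas1a, Oas1c, Oas1g and Oas3) and in 3.44% of all 32851 windows. The window of Oasl2 was searched too but is not printed above. Oas1a and Oas1g carried the same 16 letters, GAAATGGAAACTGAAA, made of 2 overlapping cores, at positions -20 to -5 and -18 to -3 from the start. The window shared by Oas1c and Oas1b held the same 16 letters on the opposite strand, so that they read in the direction of Oas1b. Seen from Oas1b they lay at positions -22 to -7, and seen from Oas1c at -114 to -99. Of all windows, 7 (0.0213%) held this run on either strand, and they belonged to Oas1a, Oas1c, Oas1g and the apolipoprotein L genes Apol9a and Apol9b. The core TTCNNNGAA of the interferon-gamma activated site (GAS), which reads the same on both strands, was found for Oas1a alone of the 6, against 8.30% of all windows. No window of Oasl1 or Oasl2 held the ISRE core, which says only that these letters are not in these 300 bases. A match is a description of letters and does not show binding.

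RNA was read with QuantSeq, a method that sequences the 3' ends of polyadenylated transcripts, so that a transcript of any length gives tags from its end and levels are not divided by length. Levels are the deposited scaled CPM, reads scaled to an effective library size (CPM). The 6 libraries held 12444986 to 15308100 reads in listed genes, and 1 read equalled 0.0625 to 0.0871 scaled CPM. Replicate libraries correlated across genes with Spearman's rho of 0.9942 to 0.9955. In the label check, Wwtr1 stood at 3.07 and 4.00 scaled CPM in KO + H-151, 4.79 and 5.03 in KO, and 213 and 218 in control libraries. Yap1 stood at 45.3 and 42.4 in KO + H-151, 66.4 and 68.3 in KO, and 122 and 128 in control libraries. Which exons are floxed is not stated in the labels, and 3' tags that fall outside a deletion would check nothing. All 8 fibroblast markers on the marker list were present, with summed levels of 20292 to 21995 scaled CPM in KO + H-151, 33398 to 35344 in KO and 28159 to 28650 in control libraries. Single markers did not all follow this sum, in which Col1a2 had the highest mean. In KO + H-151 against KO, 4 (Col1a1, Col1a2, Col3a1 and Postn) were lower and 4 (Pdgfra, Dcn, Lum and Thy1) higher (limma, adjusted p under 0.05). Over all genes tested, 21.4% were lower and 19.4% higher. In KO against control, 4 were higher and 1 (Pdgfra) lower, against 18.2% and 14.2% of all genes tested. These counts moved with the processing. Markers of macrophages were present too, 12 of 12 listed, and reached summed levels of 3142 to 3890 scaled CPM in KO + H-151, 1507 to 1523 in KO and 1210 to 1438 in control libraries. Keratinocyte markers had 1 of 6 (Krt10) in the table and T and B cell markers 0 of 5. Endothelial markers summed to 18.5 to 21.4 scaled CPM in KO + H-151, 12 to 13.2 in KO and 17.9 to 19.5 in control libraries. This sum joins markers that moved apart. In KO against control, 4 of the 6 (Pecam1, Cdh5, Emcn and Egfl7) were called lower and 1 (Kdr) higher. Over all genes tested these shares were 14.2% and 18.2%.

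KO cells were first set against control cells, which addresses the loss of YAP and TAZ together with Cre activity. All 8 Oas and Oasl genes were higher in KO than in control cells. The OASL pair moved furthest on the log2(scaled CPM + 1) scale, whereas by reads only Oasl1 stood apart. Summed over the family, levels were 859 ± 24.8 scaled CPM in KO and 17.2 ± 0.0431 in control libraries (SD, n = 2 each). In bulk RNA, more cells with the transcripts and more transcripts per cell cannot be told apart. Over all genes tested, 18.2% were called higher and 14.2% lower (limma on log2(scaled CPM + 1), Benjamini-Hochberg adjusted p threshold of 0.05). Both KO libraries lay above both control libraries for all 8 members, against 33.4% of all genes, and below them for 33.5%. The count of 8 is a description, because 5 members (Oas1a, Oas1g, Oas2, Oas3 and Oasl1) reached the minimum level for testing (1 scaled CPM in 2 libraries) only through the KO libraries. The median log2 change was 2.62 over the 8 members, against -0.01 over all 13648 genes tested.

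**Figure D1:**
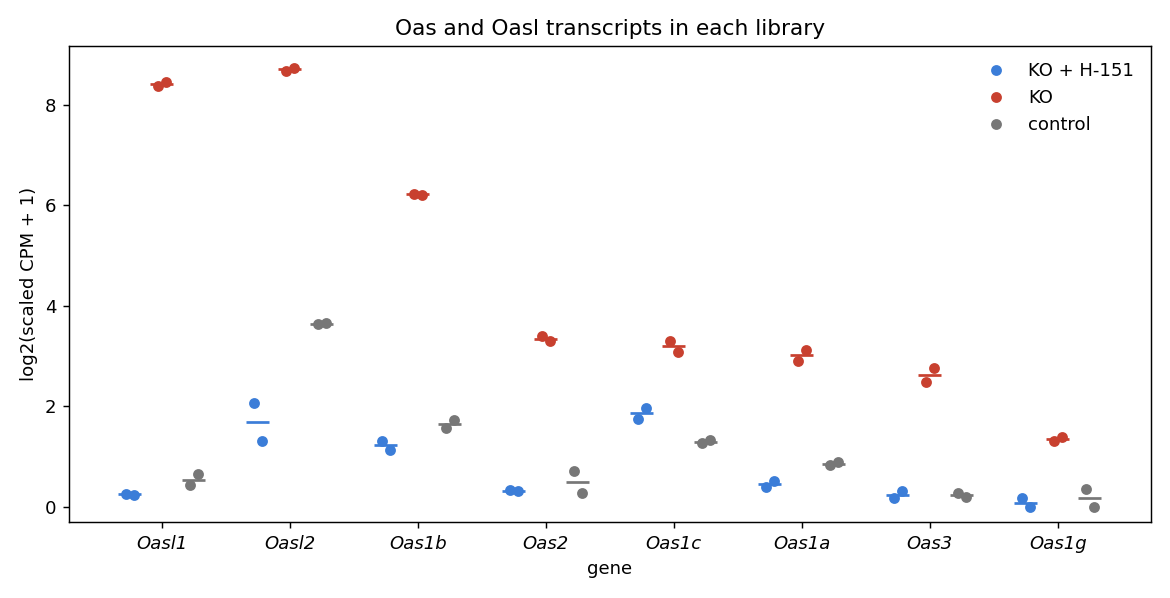
Level of each Oas and Oasl gene as log2(scaled CPM + 1), with a point per library and a line at the group mean (2 libraries each of KO + H-151, KO and control). The KO points lie above the KO + H-151 and control points for each of the 8 genes, and Oas1c is the only gene whose KO + H-151 points both lie above control.

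Oasl1, the OASL protein without 2-5A activity, showed the widest gap. It stood at 329 and 350 scaled CPM in KO libraries, against 0.356 and 0.577 in control libraries. Its control level rested on 13 reads over both libraries, so the gene was close to the detection limit in control cells, and 7884 reads were counted in KO. The ratio of reads was 729 (95% counting interval 426 to 1370), and the log2 change was 7.86 ± 0.16 (SE; adjusted p = 1.13e-15, limma). Counting intervals here and below cover counting error only.

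Oasl2, the OASL protein that makes 2-5A, was the member with the most reads in control cells. Its levels were 408 and 423 scaled CPM in KO libraries, against 11.5 and 11.6 in control libraries, a log2 change of 5.05 ± 0.17 (adjusted p = 5.04e-13, limma). In reads, Oasl2 had 9657 and Oasl1 7884 in KO libraries, whereas control libraries held 322 reads of Oasl2 and 13 of Oasl1. Oasl1 thus stood near Oasl2 in KO cells and far below it in control cells.

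Oas1b, the flavivirus resistance gene, led the OAS genes in KO cells. It stood at 73.7 and 72.8 scaled CPM in KO libraries, against 1.99 and 2.31 in control libraries, a log2 change of 4.56 ± 0.16 (adjusted p = 1.20e-12, limma). Oas1c, which starts 120 bases away on the other strand, stood at 8.88 and 7.49 scaled CPM in KO libraries, against 1.42 and 1.51 in control libraries. Its log2 change was 1.89 ± 0.19 (adjusted p = 8.50e-07, limma). By reads, the KO to control ratio was 34.1 for Oas1b (95% counting interval 26.3 to 44.9) and 5.57 for Oas1c (3.96 to 8.01). Both genes of this back-to-back pair were thus higher in KO cells, by ratios whose counting intervals do not overlap.

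Oas1a and Oas1g, which encode active small OAS enzymes, had low levels throughout. Oas1a stood at 6.53 and 7.75 scaled CPM in KO libraries, against 0.783 and 0.865 in control libraries (log2 change 2.15 ± 0.21, adjusted p = 4.04e-07, limma). Oas1g stood at 1.48 and 1.62 scaled CPM in KO libraries, against 0.285 and 0 in control libraries, where 0 reads allow up to 0.216 scaled CPM. Its log2 change was 1.17 ± 0.24 (adjusted p = 0.00105, limma), on 36 reads in KO and 4 in control, a ratio of 10.8 with a counting interval of 3.88 to 41.8. The gain of a gene this low is understated on the log2(scaled CPM + 1) scale. Oas1a and Oas1g shared 50-base words near their 3' ends: 21.1% of such words in the last 300 bases of Oas1a transcripts also occurred in Oas1g, and 39.8% of those of Oas1g in Oas1a. The split of reads between this pair is therefore uncertain. Smaller overlaps joined Oas1c with Oas1e (7.11% of the words of Oas1c) and Oas1b with Oas1g (4.73% of the words of Oas1b).

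The larger enzymes Oas2 and Oas3, which are built from repeated OAS units, were higher in KO cells as well. Oas2 stood at 9.49 and 8.86 scaled CPM in KO libraries, against 0.641 and 0.216 in control libraries (log2 change 2.85 ± 0.22, adjusted p = 2.52e-08, limma). Oas3, in human cells a main source of 2-5A, stood at 4.62 and 5.79 scaled CPM in KO libraries, against 0.214 and 0.144 in control libraries (log2 change 2.39 ± 0.22, adjusted p = 2.38e-07, limma). With 12 and 5 reads in the control group, the KO to control ratios of 21.3 for Oas2 and 29.1 for Oas3 had wide counting intervals, 12 to 41.9 and 12.1 to 91.2. These intervals overlap that of Oas1b, although the log2 changes on the scale with a pseudocount were smaller.

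The make-up of the family differed between the groups. In KO libraries Oasl2 took 48.5% and 48.3% of the family's reads (Wilson 95% intervals 47.5 to 49.5 and 47.3 to 49.2), against 66.8% and 67.4% in control libraries (60.6 to 72.4 and 61.2 to 73.0). Oasl1 took 39.1% and 39.9% in KO libraries, against 2.07% and 3.35% in control libraries. Together the OASL genes made up 87.6% to 88.1% of family reads in KO and 68.9% to 70.7% in control libraries. Shares of Oasl1 or Oasl2 in replicate libraries differed by less than the gap between these groups. In KO + H-151 libraries, which held 124 and 108 family reads, Oas1c took 29.0% and 43.5% (21.8 to 37.6 and 34.6 to 52.9). Its share was 1.05% and 0.855% in KO libraries and 8.30% and 8.79% in control libraries. The level of Oas1c itself was lower in KO + H-151 than in KO libraries (means of 2.65 and 8.19 scaled CPM). With 2 libraries against 2, an exact permutation test cannot go below p = 0.33, so no test of the shares is given.

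**Figure D2:**
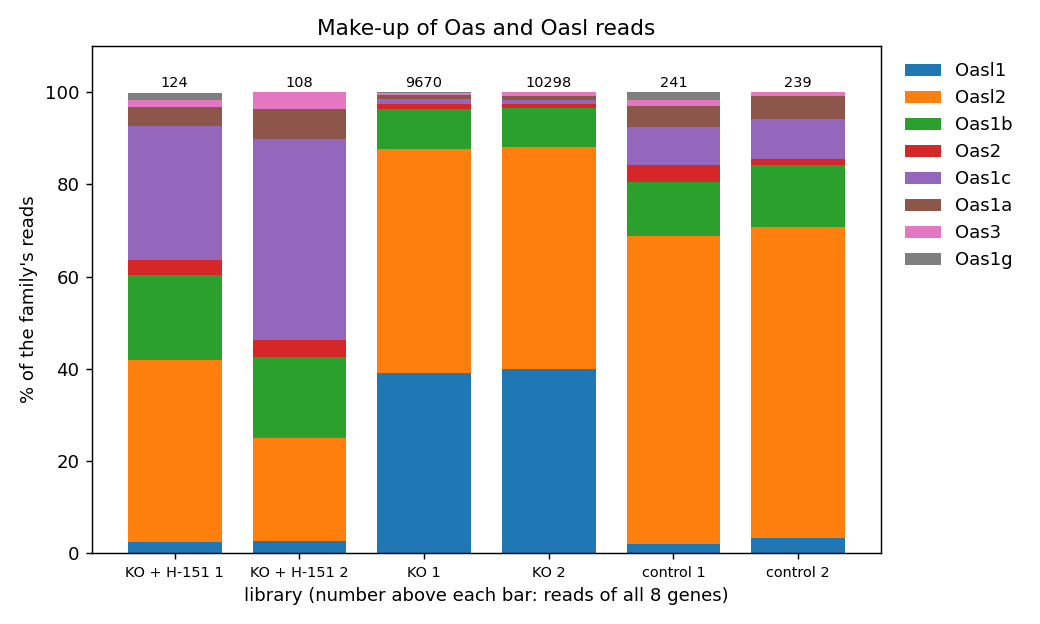
Share of the reads of the 8 Oas and Oasl genes that each gene took, as a percentage per library (2 libraries each of KO + H-151, KO and control), with the number of family reads above each bar. Oasl1 takes 39.1% and 39.9% in KO libraries and 2.07% to 3.35% in the others, and Oas1c takes 29.0% and 43.5% in KO + H-151 libraries.

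The second comparison asks what STING inhibition changed in KO cells. With H-151 all 8 genes were lower than in KO cells, and the family sum was 7.43 ± 0.953 scaled CPM in KO + H-151, against 859 ± 24.8 in KO libraries (SD, n = 2 each). Over all genes tested, 21.4% were called lower and 19.4% higher. KO + H-151 libraries lay below both KO libraries for all 8 members, against 33.7% of all genes, and above them for 35.5%. The median log2 change was -2.79 over the members and 0.02 over all genes tested. This comparison shares the KO libraries with the first, so a fall after a rise is partly fixed by the shared values, and the filter on low levels had favoured members that were high in KO.

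Oasl1 stood at 0.196 and 0.188 scaled CPM in KO + H-151 libraries, against 329 and 350 in KO libraries. It was thus at 6 reads over both KO + H-151 libraries, 1771-fold below KO (counting interval 813 to 4826), with a log2 change of -8.16 ± 0.16 (adjusted p = 5.16e-16, limma). Oasl2 stood at 3.20 and 1.501 scaled CPM in KO + H-151 libraries, against 408 and 423 in KO libraries (log2 change -7.01 ± 0.17, adjusted p = 6.07e-15, limma). Its KO + H-151 libraries differed from each other, yet both lay far below KO.

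Oas1b stood at 1.503 and 1.19 scaled CPM in KO + H-151 libraries, against 73.7 and 72.8 in KO libraries (log2 change -4.99 ± 0.16, adjusted p = 2.89e-13, limma). Oas1c stood at 2.35 and 2.94 scaled CPM in KO + H-151 libraries, against 8.88 and 7.49 in KO libraries (log2 change -1.33 ± 0.19, adjusted p = 3.54e-05, limma). By reads, Oas1c was 3.08-fold lower (counting interval 2.37 to 4.04) and Oas1b 54.6-fold lower (40.2 to 76.0). The fall of Oas1c was thus the smallest ratio in the family.

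Oas2 stood at 0.261 and 0.25 scaled CPM in KO + H-151 libraries, against 9.49 and 8.86 in KO libraries (log2 change -3.02 ± 0.22, adjusted p = 9.69e-09, limma). Oas3 stood at 0.131 and 0.25 scaled CPM in KO + H-151 libraries, against 4.62 and 5.79 in KO libraries (-2.38 ± 0.22, adjusted p = 2.12e-07, limma). Oas1a stood at 0.327 and 0.438 scaled CPM in KO + H-151 libraries, against 6.53 and 7.75 in KO libraries (-2.55 ± 0.21, adjusted p = 4.19e-08, limma). These enzymes of the 2-5A pathway were thus all at 12 reads or fewer over both KO + H-151 libraries. Oas1g had 2 reads in KO + H-151 and 36 in KO libraries, 24.3-fold lower with a counting interval of 6.24 to 208 (log2 change -1.26 ± 0.24, adjusted p = 0.000432, limma).

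Markers of other cells moved in the same comparison. All 12 macrophage markers were called higher in KO + H-151 than in KO libraries, against 19.4% of all genes tested. This was opposite to the Oas and Oasl genes, and no marker was at 0 in any group. In KO against control, 3 of the 12 macrophage markers (Ptprc, C1qc and Fcer1g) were called higher and 2 (Csf1r and Cd14) lower. Over all genes tested these shares were 18.2% and 14.2%, so the counts say little about these markers. The number higher was 1 with quantile normalization and 6 with only the 2 groups fitted. The melanocyte and Schwann cell list, with 5 of 7 genes in the table, had summed levels of 19.6 to 22.5 scaled CPM in KO + H-151, 115 to 132 in KO and 36.2 to 43.0 in control libraries. Of its genes, Sox10 was called higher in KO than in control and lower in KO + H-151 than in KO. The part of these cells in the Oas and Oasl changes was not tested.

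**Figure D3:**
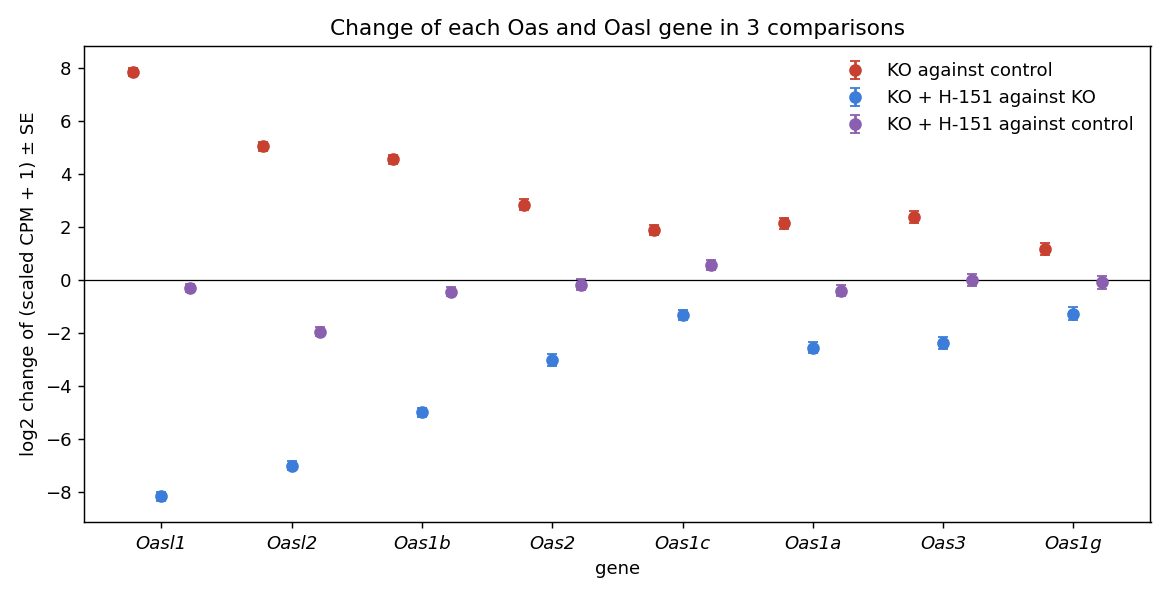
Log2 change of (scaled CPM + 1) with its SE for each Oas and Oasl gene in each of the 3 comparisons, KO with control, KO + H-151 with KO, and KO + H-151 with control (limma over 6 libraries). In the last comparison Oasl2 lies lowest at -1.95 and Oas1c highest at 0.56, and the other 6 genes lie between -0.43 and 0.01.

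The third comparison asks whether KO cells with H-151 differed from control cells. Members were split here: 1 gene, Oasl2, was called lower and 1, Oas1c, higher, against 11.4% of all genes tested called lower and 11.5% higher. At an unadjusted p under 0.05 there were 3 members. KO + H-151 libraries lay below both control libraries for 4 members and above both for 1, against 29.5% of all genes in each direction. The median log2 change was -0.23 over the members and 0.00 over all genes tested.

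Oasl2 stood at 3.20 and 1.501 scaled CPM in KO + H-151 libraries, against 11.5 and 11.6 in control libraries. The groups do not overlap, and the log2 change was -1.95 ± 0.17 (adjusted p = 4.70e-07, limma), which by reads was 4.94-fold lower (counting interval 3.82 to 6.47). Oas1c stood at 2.35 and 2.94 scaled CPM in KO + H-151 libraries, against 1.42 and 1.51 in control libraries (log2 change 0.56 ± 0.19, adjusted p = 0.0473, limma). This call lay at the threshold and was lost when any library was left out: the adjusted p was 0.0542 and 0.230 without KO + H-151 replicates 1 and 2, 0.0659 and 0.0648 without KO replicates 1 and 2, and 0.161 and 0.137 without control replicates 1 and 2. It was lost as well with the edgeR quasi-likelihood test (adjusted p = 0.0537) and DESeq2 (0.146) on recovered reads. By reads the ratio was 1.81 with a counting interval of 1.23 to 2.69. This interval excludes 1 but leaves out the spread between libraries.

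The other members did not pass. Oas1b stood at 1.503 and 1.19 scaled CPM in KO + H-151 libraries, against 1.99 and 2.31 in control libraries (log2 difference -0.43 ± 0.16, adjusted p = 0.0718, limma). Oasl1 stood at 0.196 and 0.188 in KO + H-151 libraries, against 0.356 and 0.577 in control libraries (-0.29 ± 0.16, adjusted p = 0.218, limma). Oas1a stood at 0.327 and 0.438 in KO + H-151 libraries, against 0.783 and 0.865 in control libraries (-0.40 ± 0.21, adjusted p = 0.190, limma). For each of these genes the KO + H-151 libraries lay below both control libraries. By reads the ratios were 0.624 for Oas1b (counting interval 0.411 to 0.942) and 0.465 for Oas1a (0.211 to 0.975). Both intervals exclude 1, as that of Oas1c does in the other direction. For Oasl1 the ratio was 0.412 (0.128 to 1.16). For Oas2, Oas3 and Oas1g, which had 8, 6 and 2 reads in KO + H-151 and 12, 5 and 4 in control libraries, the groups overlapped and a difference was not detectable at this depth.

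The order of levels also differed between the groups. In KO libraries the order by mean level was Oasl2, Oasl1, Oas1b, Oas2, Oas1c, Oas1a, Oas3 and Oas1g. Of neighbours in that order, Oas2 and Oas1c (9.17 ± 0.448 and 8.19 ± 0.981 scaled CPM) and Oas1c and Oas1a (8.19 ± 0.981 and 7.14 ± 0.863) lay within the spread of their libraries, SD, n = 2 each. In KO + H-151 libraries Oas1c came first at 2.65 ± 0.415 scaled CPM and Oasl2 next at 2.35 ± 1.20, a pair that did not differ beyond its spread. In control libraries Oasl2 came first at 11.5 ± 0.0969 scaled CPM, followed by Oas1b at 2.15 ± 0.221 and Oas1c at 1.47 ± 0.0629. Levels are means ± SD of 2 libraries.

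The genes that flank the clusters were set beside the members. Of 12 measured flanking genes, up to 3 on each side of each cluster, 1 (Hectd4) was called higher in KO than in control. Its log2 change was 0.57 ± 0.11 (adjusted p = 0.00110, limma). Over all genes tested, 18.2% were called higher. The other 11 did not pass, though 4 were called lower under total-count scaling. The nearest measured gene, 2210016L21Rik, begins 4.24 kb past the end of Oasl1 and stood at 46.9 and 43.6 scaled CPM in KO libraries, against 39.7 and 42.0 in control libraries. The nearest measured gene before the Oas cluster is Ddx54, an RNA helicase gene, with 36.1 and 38.0 scaled CPM in KO libraries, against 36.0 and 37.5 in control libraries. The non-coding gene Gm13822 lies between Oasl2 and Oasl1 on the minus strand and, in GENCODE M21, reaches over the first bases of Oasl1. Gm13822 stood at 10.5 and 8.52 scaled CPM in KO libraries, against 0.071 and 0 in control libraries, with a log2 change of 3.34 ± 0.22 (adjusted p = 2.78e-09, limma). By reads it had 1 in KO + H-151, 221 in KO and 1 in control libraries, a KO to control ratio of 266 with a counting interval of 47.2 to 10539. Whether the counting used strand is not given in the sources used here, so reads from where Gm13822 and Oasl1 overlap cannot be told apart, and the same holds for Oas1c with Gm43069 and Oas2 with Gm43068 on their opposite strands.

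**Figure D4:**
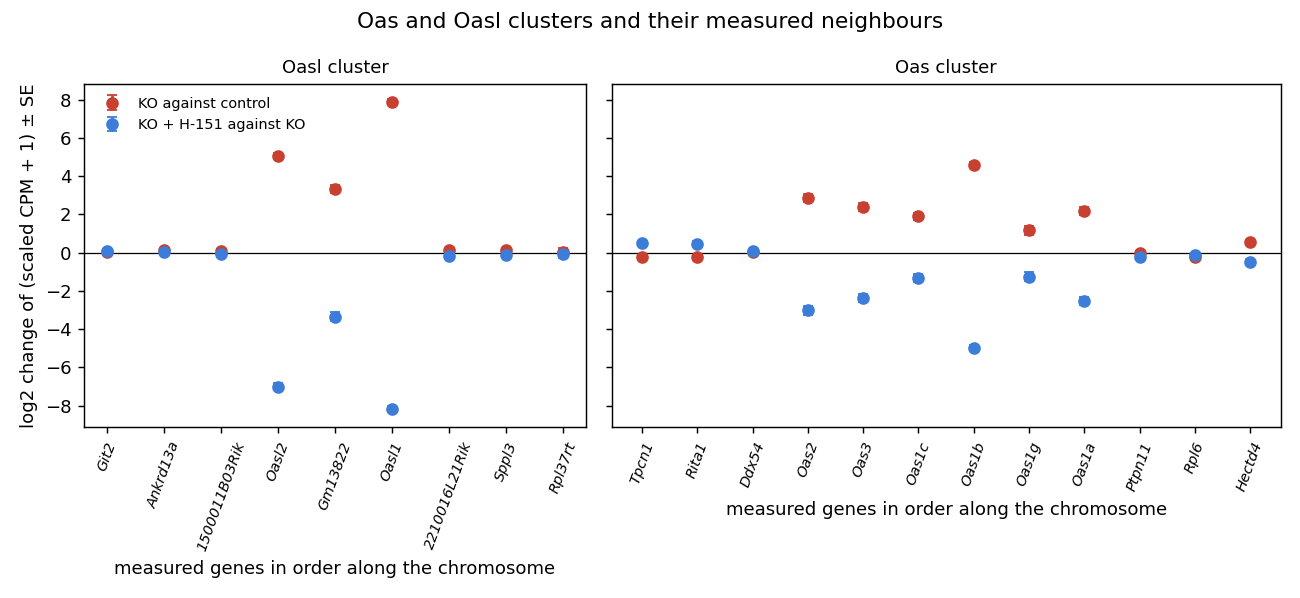
Log2 change of (scaled CPM + 1) with its SE along the measured genes of the Oasl and Oas clusters, in chromosome order without distances, for the comparisons of KO with control and of KO + H-151 with KO. The 8 members and Gm13822 stand away from 0 in both comparisons, while the 12 flanking genes lie between -0.25 and 0.57 in KO against control and between -0.47 and 0.52 in KO + H-151 against KO.

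Other genes linked to 2-5A were read beside the synthetases. Enpp1, an ectonucleotide pyrophosphatase also known for degrading the STING ligand cGAMP, stood at 18.2 and 15.9 scaled CPM in KO + H-151, 47.9 and 48.2 in KO and 20.6 and 19.7 in control libraries. It was called higher in KO than in control (1.22 ± 0.11, adjusted p = 1.52e-07, limma) and lower with H-151 than in KO (-1.45 ± 0.11, adjusted p = 1.42e-08, limma). Abce1, a ribosome recycling factor, stood at 89.5 and 87.8 scaled CPM in KO and 87.4 and 85.8 in control libraries and did not pass, and with H-151 it was lower than in KO (-0.35 ± 0.07, adjusted p = 0.00130, limma), a call lost under total-count scaling (adjusted p = 0.0668). The 2-5A phosphodiesterase Pde12 stood at 18.0 and 19.6 scaled CPM in KO + H-151, 25.2 and 21.1 in KO and 22.4 and 20.8 in control libraries. Akap7, which has a 2-5A phosphodiesterase domain, stood at 25.9 and 30.2 scaled CPM in KO + H-151, 28.4 and 28.8 in KO and 23.8 and 24.1 in control libraries. Neither passed in any of the 3 comparisons. Of these 4 genes, 1 (Enpp1) was thus called higher in KO than in control, against 18.2% of all genes tested, and 3 did not pass. On the log2(scaled CPM + 1) scale, the change of Enpp1 was exceeded by 7 of the 8 Oas and Oasl genes. The exception was Oas1g (1.17 ± 0.24), a low gene whose gain this scale understates. By reads the KO to control ratio of Oas1g was 10.8 (counting interval 3.88 to 41.8), so its place below Enpp1 depends on the scale.

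Genes for proteins that share the nucleotidyltransferase fold of OAS were read in the same way. Of 8 such genes in the table, 1 (Cgas) was called higher and 1 (Zfr) lower in KO than in control, against 18.2% and 14.2% of all genes tested. With H-151, 2 (Cgas and Mab21l2) were called lower than in KO, against 21.4% of all genes, and the call of Mab21l2 was lost when either KO library was left out (adjusted p = 0.139 each) or without KO + H-151 replicate 1 (adjusted p = 0.314). The DNA sensor Cgas, which makes the STING ligand, stood at 11.3 and 9.26 scaled CPM in KO + H-151, 48.6 and 42.7 in KO and 10.97 and 9.01 in control libraries. It was called higher in KO than in control (log2 change 2.09 ± 0.14, adjusted p = 4.42e-09, limma) and lower with H-151 than in KO (-2.05 ± 0.14, adjusted p = 4.76e-09, limma). Zfr stood at 290 and 272 scaled CPM in KO libraries, against 319 and 324 in control libraries (-0.19 ± 0.07, adjusted p = 0.0365, limma), a call lost without any 1 of these 4 libraries (adjusted p = 0.0773 and 0.271 without KO replicates 1 and 2, 0.110 and 0.161 without control replicates 1 and 2).

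Of 8 genes for other sensors of and responders to double-stranded RNA, 7 were called higher in KO than in control, against 18.2% of all genes tested. Mavs did not pass. The median log2 change of the 8 was 2.85, beside 2.62 for the Oas and Oasl genes. Ifih1, the RNA sensor MDA5, changed by 5.49 ± 0.08, Tlr3, an endosomal receptor, by 3.70 ± 0.11 and Ddx58, the RNA sensor RIG-I, by 2.77 ± 0.08 on the log2 scale (adjusted p = 6.79e-17, 9.16e-14 and 9.24e-14, limma). Mavs, the adaptor of MDA5 and RIG-I, stood at 31.9 and 34.2 scaled CPM in KO and 33.3 and 32.6 in control libraries. In KO + H-151 against control, 6 of the 8 were called lower, against 11.4% of all genes tested. Among them was Ddx58 (-0.81 ± 0.08, adjusted p = 2.40e-06, limma).

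Genes on the route from interferon to the OAS promoters were read alongside. Of 11, 7 were called higher in KO than in control, against 18.2% of all genes tested, and 4 did not pass. The same 7 were called lower with H-151 than in KO, against 21.4% of all genes tested. Interferon beta (Ifnb1) had 0 reads in KO + H-151, 65 in KO and 0 in control libraries. Set against 3 reads summed over the control libraries, KO was at least 26.0-fold higher. The ISGF3 subunit gene Stat2 changed by 3.04 ± 0.08 on the log2 scale in KO against control (adjusted p = 3.45e-14, limma), and the transcription factor gene Irf1 by 4.88 ± 0.08 (adjusted p = 6.79e-17, limma). Irf9, the DNA-binding subunit of ISGF3, and Irf7, whose translation Oasl1 blocks, were named outside the rule after their values were seen. Irf9 stood at 200 and 201 scaled CPM in KO libraries, against 66.4 and 67.5 in control libraries, a log2 change of 1.57 ± 0.07. Irf7 stood at 3.72 and 3.19 scaled CPM in KO + H-151, 186 and 193 in KO and 10.3 and 9.44 in control libraries. In KO + H-151 against control, 2 of the 11 genes were called higher, Irf1 (0.37 ± 0.08, adjusted p = 0.00213, limma) and Tyk2, and 4 were called lower, among them Irf7 (-1.29 ± 0.12, adjusted p = 9.06e-07, limma), against 11.5% and 11.4% of all genes. The Irf1 call was lost with no trend in the prior variance (adjusted p = 0.0542). The kinase gene Jak1 stood at 575 and 540 scaled CPM in KO and 527 and 538 in control libraries, and it did not pass.

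Genes with the most similar profiles were picked by the smallest root mean square difference of mean-centred log2(scaled CPM + 1) values over the 6 libraries. For Oasl1 these were Mx1 (0.20 log2 units), an antiviral GTPase, the chemokine gene Cxcl9 (0.30) and the guanylate-binding protein gene Gbp5 (0.34). For Oasl2 they were Ifi205 (0.26), the ubiquitin-like modifier gene Isg15 (0.28) and Ifi203 (0.30), and for Oas1b Herc6 (0.17), Rnf213 (0.18) and Irgm1 (0.19). Oas1c was nearest to Phlda1 (0.11), Tifa (0.11) and Tmcc3 (0.12). Like Oas1c, these were higher in KO + H-151 than in control, Phlda1 by 0.41 ± 0.07, Tifa by 0.56 ± 0.11 and Tmcc3 by 0.60 ± 0.11 on the log2 scale (adjusted p = 0.000671, 0.00128 and 0.00118, limma), as their choice by profile favours. The nearest genes were Tfap2a, Adar and Ripk2 for Oas1a, Mir155hg, Samhd1 and Btc for Oas2, Dcp2, Rbm43 and Whamm for Oas3, and Gm28791, Kcnab1 and Cfap299 for Oas1g, at 0.06 to 0.13. Libraries of a group share their treatment, so likeness over 6 libraries rests on 3 group levels.

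The genes that share the 16-letter run with Oas1a, Oas1g and the Oas1b start were also looked up, after the run had been found. Apol9a stood at 0.065 and 0.313 scaled CPM in KO + H-151, 26.2 and 21.5 in KO and 2.07 and 1.66 in control libraries (KO against control, log2 change 3.11 ± 0.20, adjusted p = 2.77e-09, limma). Apol9b stood at 0 and 0.063 scaled CPM in KO + H-151, 12.3 and 16.2 in KO and 0.641 and 1.51 in control libraries (KO against control, 2.89 ± 0.23, adjusted p = 5.18e-08, limma). Each gene with the run in its RefSeq window was thus called higher in KO than in control cells, as 18.2% of all genes tested were. This is a description and no test of the run, which was found in members already known to be higher in KO. Oas1a, Oas1g and Apol9b reached the minimum level for testing only through the KO libraries. The windows of Oas1a and Oas1g are also 85.3% identical.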

How the data were processed

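RNA of 6 libraries, 2 per group, was read with QuantSeq 3' sequencing. STAR 2.5.3a, featureCounts, edgeR and mm10 are named in the submitters' processing notes, and the annotation, strand setting and filters are not given in the sources used here. The deposited values, made by the authors, are a scaled signal: CPM of an effective library size, from which whole reads were recovered for 99.9927% to 100% of values per library (tolerance 0.0006 scaled CPM). The plan had assumed plain CPM, and the same test was kept. Genes that reached 1 scaled CPM in 2 or more libraries (13648 of 13706) were tested with limma 3.58.1 (R 4.3.3) on log2(value + 1), with 1 mean per group, trended prior variance, Benjamini-Hochberg adjustment over all genes tested and a two-sided threshold of 0.05. edgeR 4.0.16 and DESeq2 1.42.0 were alternatives on recovered reads, beside other pseudocounts, filters, scalings, libraries left out and a replicate block. Ratios of reads carry exact binomial 95% intervals. Per-gene chi-square values of 3.51 to 8.562 between replicates showed more than sampling noise, so no library was counted as a copy of another. The procedure was tested on simulated data.

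Named genes were all Oas and Oasl genes and the 2-5A pathway genes. For each other list they were the 3 with the smallest p in KO against control, the highest mean and any member of a count of 5 or fewer. To these were added the 3 nearest profiles per member and up to 3 flanking genes per side (RefSeq order). The members and lists were chosen with earlier results of these data known. Coordinates and 3' ends are from GENCODE M21 and promoters from RefSeq, GRCm38.p6. Promoters were searched by exact letters. Some genes that this rule selects are not reported here.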

Additional observations from a re-analysis of the deposited data

How the results depend on the processing

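All 8 Oas and Oasl genes stayed called higher in KO than in control, and lower in KO + H-151 than in KO, under every alternative that tested them. A mean of at least 10 left 3 of them for testing, all called (3 higher, 3 lower). In KO + H-151 against control, Oasl2 stayed called lower throughout, whereas the number called higher (Oas1c) was 0 with pseudocount 4, a mean of at least 10, quantile normalization, only the 2 groups, the replicate block, edgeR and DESeq2, and 0 to 0 with libraries left out. The number called lower was 3 with pseudocount 0.25 and 2 with no trend. With libraries left out, the difference of Oas1g ranged between -0.27 and 0.09 and that of Oas2 between -0.39 and 0.05, both turning positive without control replicate 1, and Oas3 was at -0.03 without control replicate 2 and -0.06 without KO + H-151 replicate 2, all uncalled, and the cause was not tested.

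Counts over all genes moved more. Genes lower in KO than in control numbered 1266 (mean of at least 10), 2987 (quantile), 4054 (total-count scaling) and 1217 (DESeq2), and 1165 to 2186 with libraries left out. Without KO replicate 1 or 2 they were 1184 and 1165, and without control replicate 1 or 2 they were 1252 and 1171, against 1938. In KO + H-151 against KO, genes higher numbered 1676 (mean of at least 10) and 4768 (total-count), and genes lower 1930 (total-count). In KO + H-151 against control, genes lower numbered 937 with no trend. With libraries left out, genes higher numbered 951 to 1373 and genes lower 924 to 1499, lowest without control replicate 2. Under total-count scaling all genes had a median log2 change of -0.16 in KO against control and 0.18 in KO + H-151 against KO, and 29.9% and 71.2% of called genes were higher, against 56.2% and 47.5%. With quantile normalization these shares were 39.1% and 61.9%.

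Same-numbered libraries deviated together with correlations of -0.068 (KO and control), -0.128 (KO + H-151 and KO) and 0.154 (KO + H-151 and control), so the numbers were not taken as pairs. With the replicate block 8 members were higher in KO, 8 lower with H-151 than in KO, and 1 lower and 0 higher with H-151 than in control. The crossed pairing, added after seeing the data, gave 8 lower. Members with under 15 reads in control or KO + H-151 libraries (Oasl1, Oas1a, Oas2, Oas3 and Oas1g) are limited by depth there.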
